A study of Mus musculus with 15 samples.

Results

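The livers compared here came from ovariectomized female C57BL/6 mice (C57BL/6J in the study's methods) on a high-fat diet that had been given bazedoxifene alone (BZA) or conjugated estrogens together with bazedoxifene (CE+BZA). The comparison holds 6 of the 15 mice with liver RNA-seq, 3 with BZA and 3 with CE+BZA, and it was made over all 2545 genes of the deposited table. All of the mice had received a diet with 45% of its energy from fat from 8 weeks of age, had been ovariectomized at 10 weeks and were treated for 6 weeks. BZA was dosed at 3 mg per kg per day, CE alone at 2.5 mg per kg per day from osmotic minipumps, and the doses within CE+BZA are not restated in the sources used here. Mice given vehicle (Veh) or CE alone serve as context, and those given estradiol entered only the shared estimate of spread. The livers are whole tissue from single mice, so fewer cells of a type and less RNA per cell cannot be told apart.

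Conjugated estrogens are a mixture of estrogen sulfates, mostly of estrone and equine estrogens, that the body converts to active hormones. Bazedoxifene is a selective estrogen receptor modulator, a ligand that occupies the same receptors but recruits other partner proteins, and so acts as an antagonist in the uterus and breast and as an agonist in bone. In the liver, estrogen receptor alpha binds DNA at palindromic elements or through other factors, and estrogens are known there for effects on lipid synthesis, on sulfotransferases and cytochromes P450 with sex-biased levels, and on clotting factors. Whether CE added to BZA moves the same genes as CE added to no other drug is the question that the groups allow.

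Values are log2 expression, set to 0 at the median mouse of the 15 for each gene, and a difference of 1 is 2-fold. All 2545 genes had at least 1 treatment mean more than 2-fold from the Veh mean (0 genes had every treatment within 2-fold), so the table is a selection on differences from Veh and not a whole transcriptome. In 1045 genes (41.1%) 2 or more of the 15 mice shared the lowest value, a floor set before deposition. Where a whole group is at that floor, the size of the difference depends on where the floor was set. Read depth per mouse is unknown, since the table gives no counts. For genes at the floor in 2 or more mice, approximate read numbers were taken from the spacing of low values, which put 1 read at 0.85 to 0.987 normalized counts in these 6 mice. Between 60.6 and 64.0% of those low values lay within 0.02 reads of a whole number, so the read numbers are estimates.

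The BZA mice differed from one another more than the CE+BZA mice did, with a median SD per gene of 0.70 in BZA and 0.57 in CE+BZA. BZA mouse 3 was more than 2-fold above all 5 other mice in 144 genes and BZA mouse 1 in 112, whereas BZA mouse 4 was more than 2-fold below all 5 others in 153. In the CE+BZA mice, 18 to 64 genes were that far above and 22 to 57 that far below the others. BZA mouse 4 was at the lowest value in 732 genes, against 400 and 382 in BZA mice 1 and 3 and 457 to 574 in CE+BZA. Its mean over all genes was −0.19, against 0.22 and 0.23 in BZA mice 1 and 3 and −0.06 to 0.18 in CE+BZA. The mean over the 29 pancreatic acinar markers in the table was 5.40 in BZA mouse 3, 0.86 in BZA mouse 1 and 0.05 in BZA mouse 4, and −0.01 to 0.25 in CE+BZA. Digestive enzymes that the exocrine pancreas secretes, and not the liver, thus set BZA mouse 3 apart, and their part in other results was not tested. BZA mouse 1 had the highest means of the 6 mice for ductal or other epithelial (1.51, 19 markers), mesothelial (1.93, 5 markers) and muscle markers (2.38, 3 markers). Ctrb1, a chymotrypsinogen, was at 4.64, 7.02 and 0.00 in BZA mice 1, 3 and 4, and at 0.98, 0.00 and 0.00 in CE+BZA mice 1, 2 and 3. Dmbt1, a secreted epithelial glycoprotein, was at 11.73, 3.85 and 0.00 in BZA and at 0.00 in all CE+BZA mice. Adipoq, the adipocyte hormone adiponectin, was at 0.89, 5.52 and 0.00 in BZA and at 0.00 in all CE+BZA mice. BZA mouse 4 was at the lowest value of all 3 of these genes.

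**Figure D1:**
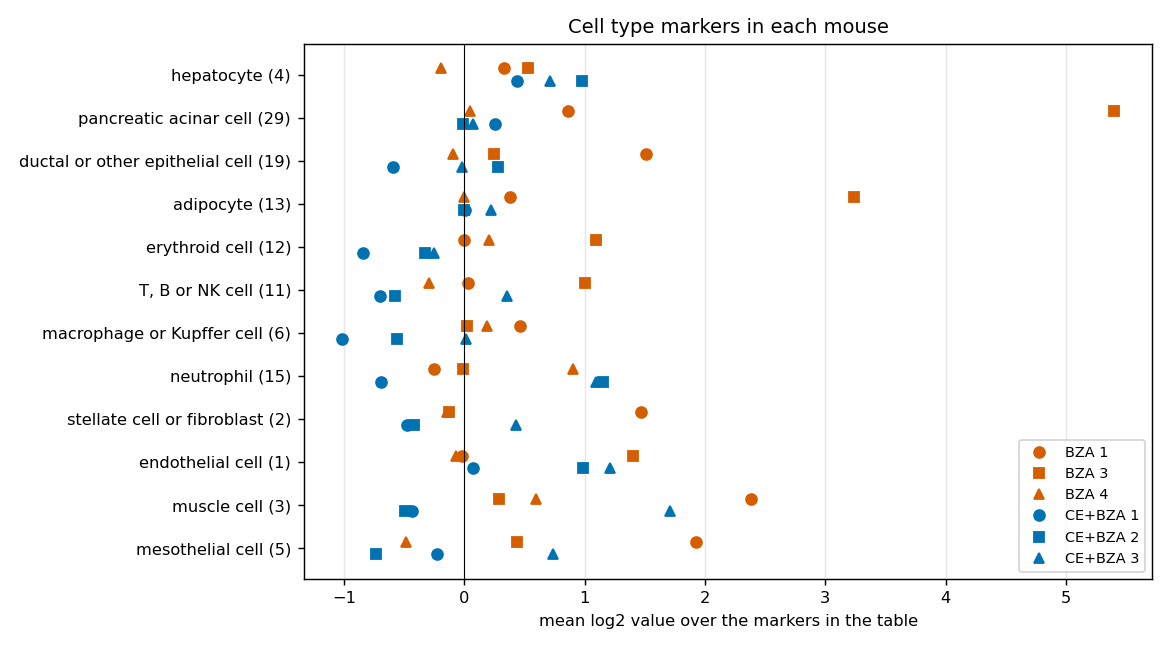
Mean log2 value over the markers of each cell type in each of the 3 BZA mice (orange) and 3 CE+BZA mice (blue), with the number of markers in the table in brackets and 0 the median of 15 mice. BZA mouse 3 stands at 5.40 for acinar and 3.24 for adipocyte markers, and the erythroid mean is below 0 in all 3 CE+BZA mice.

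The hepatocyte label could be checked only in part, since 4 of 23 hepatocyte markers (Tat, Trf, Pck1 and G6pc) are in the table. Their mean was −0.19 to 0.53 in BZA and 0.43 to 0.98 in CE+BZA, so the groups overlapped. Because of the admixed transcripts, the higher and lower genes ranked by p below were taken only from those that met every criterion. Each CE+BZA mouse lay beyond each BZA mouse, and the difference stayed above 2-fold without any single BZA mouse. The gene was also on no marker list of another cell type. Genes named from the gene lists or for another reason did not have to meet these criteria. Of such genes, Greb1, Sult2a5, Col7a1 and Trem2 had smallest differences without 1 BZA mouse of 0.93, 0.80, 0.97 and 0.92 in size.

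No gene passed the threshold between CE+BZA and BZA. By limma with Benjamini-Hochberg adjustment (FDR), 0 of 2545 genes (0%) had an FDR under 0.05 with a fold change above 2, and the smallest FDR was 0.267. An ordinary linear model without shrinkage also gave 0 genes. At an unadjusted p under 0.05, 223 genes (8.76%) differed, of which 110 (4.32%) were higher and 113 (4.44%) lower in CE+BZA, all with a fold change above 2. The median difference was 0.01, its median size 0.54 and the median standard error 0.64, so a typical gene differed by less than its standard error. In 113 genes (4.44%) all 3 CE+BZA mice were above all 3 BZA mice with means more than 2-fold apart, and in 85 (3.34%) they were below. With 3 mice against 3, an exact two-sided permutation test cannot give a p below 0.1 for any one gene.

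Of the 113 higher genes, 62 had 2 or more mice at the floor, 75 had an unadjusted p under 0.05 and 0 were markers of another cell type. Of the 85 lower genes, these numbers were 43, 70 and 11. The whole lower group was at the floor in 10 of the higher and 17 of the lower genes. After removal of markers and of genes that fell under 2-fold without any one BZA mouse, 82 higher and 50 lower genes were left. The Veh mean was nearer to CE+BZA in 63 of the 113 and nearer to BZA in 50, and nearer to CE+BZA in 45 of the 85 and to BZA in 40.

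Of the 82 higher genes, the 10 with the smallest p were Gm17705, Heatr8, 4931413K12Rik, BC046401, Snora65, Gm17193, Tmod4, Gm13872, Trpv1 and Cxcl13, and 6 of them are noncoding by their GENCODE type. Cxcl13 encodes a chemokine that attracts B cells through the receptor Cxcr5, and it lies on chromosome 5 at 95956951 to 95961068 (GRCm38, plus strand). Cxcl13 stood at −1.58, −0.56 and −1.94 in BZA mice 1, 3 and 4 and at 0.10, 1.16 and 1.83 in CE+BZA mice 1, 2 and 3. The CE+BZA mice were all higher, by a mean of 2.39 (SE 0.73, FDR 0.514 by limma). It was also higher in CE (1.21 ± 1.15, SD, n = 3) than in Veh (−0.20 ± 1.05, SD, n = 3), with overlapping mice. Only 1 of the 15 mice was at its lowest value, so the contrast does not rest on the floor.

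Trpv1, the capsaicin-gated and heat-gated cation channel of sensory neurons (chromosome 11, 73234292 to 73261242), was at −0.03, −0.10 and −0.10 in BZA and at 1.47, 1.74 and 2.86 in CE+BZA. This is a difference of 2.10 (SE 0.64, FDR 0.514 by limma) on few reads, about 3.01, 4.01 and 8.02 in the CE+BZA mice, with 6 of the 15 mice at the floor. Tmod4, which caps actin filaments in skeletal muscle, was at −1.69, −1.69 and −0.94 in BZA and at −0.68, 0.65 and 1.60 in CE+BZA. The nearest mice of the 2 groups were 0.27 apart in Tmod4 and 1.503 apart in Trpv1. Muscle markers in the table (3 genes) had means of 2.38, 0.29 and 0.60 in BZA and of −0.44, −0.49 and 1.71 in CE+BZA, and their part in the Tmod4 values was not tested.

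Among loci of no known role, Gm17705, a lincRNA on chromosome 17 at 35165119 to 35167186, had the smallest p of the genes that met every criterion. It was at −0.91, −1.80 and −1.80 in BZA and at 0.64, 1.46 and 1.65 in CE+BZA, a difference of 2.75 (SE 0.58, FDR 0.267 by limma). In BZA that is about 2.00 reads in mouse 1 and the floor in mice 3 and 4, against about 5.49, 10.7 and 11.3 reads in CE+BZA. 4931413K12Rik and BC046401 were at their lowest value in all 3 BZA mice, and at 0.77 to 1.42 and 1.4 to 2.04 in CE+BZA. Gm13872 had the largest difference of the 10, 3.25 (SE 0.99), with CE+BZA mice spread from −2.20 to 0.53. Gm13872 is annotated as antisense and Gm17193 as sense intronic, and the counting was not stated to use strand, so their reads cannot be told apart from those of the overlapping gene.

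**Figure D2:**
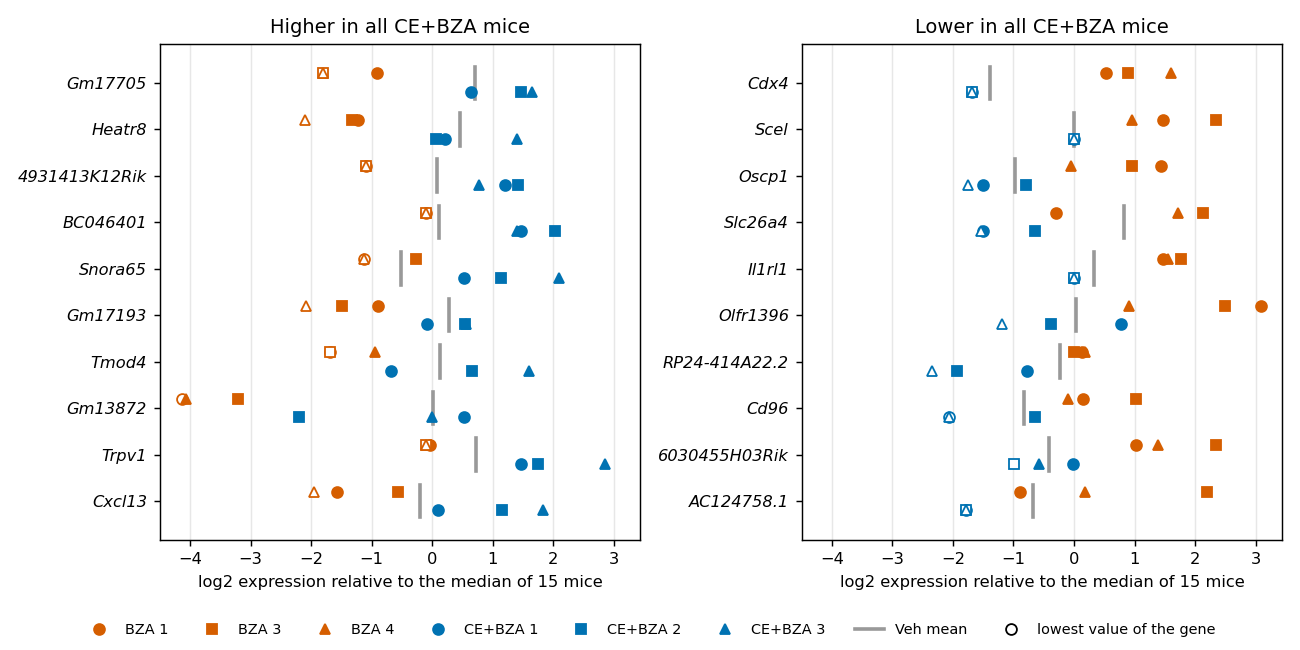
Log2 expression of the 10 higher (left) and 10 lower (right) genes with the smallest p in each of the 3 BZA mice (orange) and 3 CE+BZA mice (blue), open symbols marking its lowest value and grey lines the Veh mean. The groups do not overlap in any of the 20 genes, by selection, and in 4931413K12Rik, BC046401, Cdx4, Scel, Il1rl1 and AC124758.1 a whole group is at the lowest value.

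Of the 50 lower genes, the 10 with the smallest p were Cdx4, Scel, Oscp1, Slc26a4, Il1rl1, Olfr1396, RP24-414A22.2, Cd96, 6030455H03Rik and AC124758.1. Slc26a4 encodes pendrin, an exchanger of chloride for iodide and bicarbonate, and lies on chromosome 12 at 31519827 to 31559969 (minus strand). It was at −0.30, 2.13 and 1.72 in BZA mice 1, 3 and 4 and at −1.51, −0.65 and −1.54 in CE+BZA mice 1, 2 and 3, a difference of −2.42 (SE 0.74, FDR 0.514 by limma). Its CE+BZA mean of −1.23 was also below Veh (0.82 ± 0.76, SD, n = 3) and CE (0.59 ± 1.48, SD, n = 3). Slc26a4 and RP24-414A22.2 were the only lower genes among the 10 with a single mouse of 15 at the lowest value.

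Il1rl1, the receptor for interleukin-33 on mast cells and other immune cells (chromosome 1, 40429570 to 40465415), was at 1.47, 1.77 and 1.55 in BZA and at its floor of 0.00 in all CE+BZA mice. These are about 3.01, 4.0 and 3.01 reads, and 9 of the 15 mice were at the floor. Cdx4, a caudal-type homeobox factor of embryonic axis formation, was at 0.53, 0.89 and 1.60 in BZA and at the floor in all CE+BZA mice, with about 5.01, 7.01 and 10.02 reads in BZA. Both genes were thus seen in each BZA mouse and not above the floor in any CE+BZA mouse, which at such read numbers is not absence. Cd96, a receptor of T and NK cells, was at 0.14, 1.02 and −0.10 in BZA and at −2.07, −0.64 and −2.07 in CE+BZA. The 11 T, B and NK cell markers had means of 0.03, 1.0 and −0.29 in BZA and of −0.70, −0.58 and 0.36 in CE+BZA, which overlap. Scel, sciellin of stratified epithelia, was at 1.47, 2.35 and 0.97 in BZA and at the floor in CE+BZA, while the 19 epithelial markers had means of 1.51, 0.25 and −0.10 in BZA and −0.60 to 0.28 in CE+BZA. The part of these cell types in either gene was not tested. Oscp1, linked to organic solute transport, was at −0.04 to 1.44 in BZA and −1.75 to −0.80 in CE+BZA, and the olfactory receptor gene Olfr1396 was at 0.90 to 3.08 and −1.19 to 0.77.

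Greb1 was lower in every CE+BZA mouse than in every BZA mouse, with means more than 2-fold apart, as were 3.34% of all genes. Greb1, an estrogen-induced cofactor of the receptor, was at 0.89, 2.09 and 0.97 in BZA mice 1, 3 and 4 and at its floor of 0.00 in all CE+BZA, CE and Veh mice. The difference was −1.31 (SE 0.44, FDR 0.514 by limma), and its smallest size without 1 BZA mouse was 0.93, under 2-fold. It stands for about 2.00, 5.01 and 2.00 reads in the BZA mice, with 11 of 15 mice at the floor, so it is a detection in BZA livers at very low depth. Esr1 itself is not among the 2545 genes.

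The stretches before the starts of Cxcl13 and Greb1 are shown because these are the chemokine that was higher and the receptor target that was lower when CE was added. Each is the 250 bases before the RefSeq start on GRCm38.p6, 5′ to 3′ on the strand of the gene, chr5:95956689-95956938 on the plus strand and chr12:16800887-16801136 on the minus strand, and Greb1 has further starts downstream. Capitals mark the half-site of the estrogen response element, AGGTCA or its reverse complement TGACCT.
Cxcl13: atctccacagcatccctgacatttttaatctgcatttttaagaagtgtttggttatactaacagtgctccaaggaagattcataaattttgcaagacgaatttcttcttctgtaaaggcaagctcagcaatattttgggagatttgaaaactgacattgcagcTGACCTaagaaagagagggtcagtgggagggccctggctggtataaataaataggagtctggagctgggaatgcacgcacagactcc
Greb1: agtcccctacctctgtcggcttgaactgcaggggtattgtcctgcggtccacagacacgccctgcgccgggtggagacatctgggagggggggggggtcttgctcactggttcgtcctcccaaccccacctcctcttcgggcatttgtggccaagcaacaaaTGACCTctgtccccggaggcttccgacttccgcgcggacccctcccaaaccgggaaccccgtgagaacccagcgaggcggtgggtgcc
The half-site begins at −87 in Cxcl13 and at −88 in Greb1, counted from the start. In windows from 250 bases before to 50 after a start, searched on both strands, it occurred in 16.3% of all 32851 windows and in 17.4% of the 1745 windows of genes in the table. For the 20 genes with the smallest p, 12 had 13 windows in RefSeq, and 2 of these windows (15.4%), of Cxcl13 and Il1rl1, held the half-site, a share near that of all windows. The full palindrome GGTCANNNTGACC occurred in 23 windows overall and in 0 windows of genes in the table. A match is a description of these letters and not evidence of binding.

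Genes grouped by function had medians from −0.43 to 0.50, against 0.01 over all genes, and 0 of their members passed at an FDR under 0.05 by limma. Of the 44 estrogen-responsive or sex-biased liver genes, 30 were lower and 14 higher in CE+BZA, with a median of −0.26. Without regard to fold change, 5 of the 44 were lower in every CE+BZA mouse than in every BZA mouse and 1 was higher, where 5.5% and 7.15% of all genes were. The 5 were Sult2a2, Sult2a4, Sult2a5, Slc22a29 and Vldlr, and the higher one was Gadd45g.

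The Sult2a enzymes attach sulfate to bile acids and hydroxysteroids and are higher in female than in male mouse liver. All 5 members in the table had lower means in CE+BZA, with differences from −1.36 to −0.89 (median −1.03), and this held with every scaling and without any one mouse. Sult2a5 (chromosome 7, 13623967 to 13670807) was at 0.97, 0.00 and 0.35 in BZA mice 1, 3 and 4 and at −0.87, −0.57 and −0.44 in CE+BZA mice 1, 2 and 3, a difference of −1.07 (SE 0.44, FDR 0.540 by limma). The Veh mice were at 1.15, 0.86 and 1.4, above all of the others but BZA mouse 1. Sult2a2 and Sult2a4, named after their values were seen, were at −0.19 to 0.43 and −0.13 to 0.55 in BZA and at −0.84 to −0.64 and −0.72 to −0.52 in CE+BZA. Sult2a1 and Sult2a3 overlapped between the groups. The 5 genes are near-identical neighbours among which reads may be split, so they are not 5 independent observations.

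Slc22a29, an organic anion transporter family member on chromosome 19, followed the same order. It was at 0.78, 0.57 and 0.16 in BZA, at −1.08, −0.28 and −0.86 in CE+BZA and at 0.37 to 1.09 in Veh, a difference of −1.24 (SE 0.47, FDR 0.540 by limma) between CE+BZA and BZA. Sult1e1, the estrogen sulfotransferase that inactivates estrogens, was named after its values were seen. It had a mean difference of −2.39 (SE 0.67, FDR 0.514 by limma), with −1.0, 1.41 and 1.15 in BZA and with −2.09, −0.96 and −2.56 in CE+BZA. BZA mouse 1 and CE+BZA mouse 2 overlapped by 0.04. Gadd45g, a stress-inducible gene of growth arrest, was at 0.19, 0.00 and −0.80 in BZA and at 0.23, 1.95 and 1.18 in CE+BZA, and the nearest mice were only 0.04 apart.

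Fatty acid oxidation and peroxisomal genes leaned lower, with 14 of 17 means below those in BZA and a median of −0.43. In 4 of the 17 every CE+BZA mouse was below every BZA mouse at any fold change (5.5% of all genes), and in 0 was every mouse above. The 4 were Acot6, a peroxisomal acyl-CoA thioesterase, Crot, which exports shortened acyl chains from peroxisomes, and the omega-hydroxylases Cyp4a31 and Cyp4a32, the last 2 near-identical. Acot6 was at 0.64, −0.24 and 0.10 in BZA and at −0.98, −0.47 and −0.75 in CE+BZA, a difference of −0.90 (SE 0.45, FDR 0.595 by limma). Crot, Cyp4a31 and Cyp4a32 differed by −0.62, −0.73 and −0.68, with 0.05 to 0.16 between the nearest mice. Their Veh means of 0.91, 1.02 and 1.07 were higher than those of either group. With BZA mouse 4 as the only BZA mouse, the list split into 9 lower and 8 higher genes with a median of −0.04, so the lean rests on BZA mice 1 and 3. BZA mouse 4 also had the lowest mean over all genes of the BZA and CE+BZA mice (−0.19), and the part of this in the split was not tested. Fgf21, the fasting hepatokine that is on this list and on that for glucose, was not among the lower ones. It was at −0.66, −1.19 and −2.82 in BZA and at −0.41, −0.69 and 0.65 in CE+BZA, a difference of 1.41 (SE 0.73), and the groups overlapped by 0.03.

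In lipid uptake, synthesis and storage, 12 of 20 means were lower and the median was −0.17. Vldlr, a receptor for triglyceride-rich lipoproteins, was lower in every CE+BZA mouse (−0.43 to −0.11) than in every BZA mouse (0.02 to 0.86). Fasn, fatty acid synthase, was higher in every CE+BZA mouse (0.01 to 0.73) than in every BZA mouse (−0.82 to 0.00), with 0.01 between the nearest. Neither mean difference reached 2-fold, and they were the only members without overlap, where 5.5% of all genes were lower and 7.15% higher at any fold change. Cidea, a lipid droplet protein also on the adipocyte list, was at 0.89 and 3.35 in BZA mice 1 and 3 and at the floor in BZA mouse 4 and all CE+BZA mice. Pparg, the adipogenic nuclear receptor, was at 0.00, 0.17 and −0.57 in BZA and at −0.70, 0.16 and 0.00 in CE+BZA, with means 0.05 apart. Mogat1, a monoacylglycerol acyltransferase, differed by −0.20 (SE 0.50), and both groups lay below Veh (2.20 ± 0.14, SD, n = 3).

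Of 34 acute phase, cytokine and NF-kappa B genes, 22 means were higher and the median was 0.23, but without CE+BZA mouse 2 there were 13 higher and 21 lower means and a median of −0.07. Cxcl13 was the 1 member higher without overlap by more than 2-fold, and Ccl25 was higher without overlap at any fold change (−0.05 to 0.31 in BZA and 0.36 to 1.14 in CE+BZA), where 4.44% and 7.15% of all genes were. Ccl22, a chemokine for Th2 and regulatory T cells named after its values were seen, had a mean difference of −1.26 (SE 0.58), with overlapping mice. Of 44 genes of cytochromes P450, conjugation and export, 28 were lower (median −0.20). Cyp21a1, the steroid 21-hydroxylase of the adrenal, was higher in every CE+BZA mouse (0.50, 1.92 and 1.43) than in BZA (−0.36, 0.37 and −0.60), by 1.48 (SE 0.74, FDR 0.583 by limma). Of the 44, 1 was higher and 1 lower without overlap at any fold change, where 7.15% and 5.5% of all genes were.

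Immediate early genes (19, median 0.24) were mixed. Egr1, a growth-factor-induced transcription factor, was lower in every CE+BZA mouse, whereas Gadd45g and Sik1, a salt-inducible kinase at −0.88 to 0.36 in BZA and 0.38 to 1.16 in CE+BZA, were higher. These were the 1 lower and 2 higher of the 19 without overlap at any fold change, where 5.5% and 7.15% of all genes were. Of 60 solute carriers, 33 were lower (median −0.10), and 3 were lower without overlap by more than 2-fold, Slc26a4, Slc22a29 and the riboflavin transporter Slc52a3, where 3.34% of all genes were. Slc52a3 was at 1.60, 1.82 and 1.36 in BZA and at −0.21, −0.77 and 0.93 in CE+BZA, a difference of −1.61 (SE 0.59, FDR 0.540 by limma). Of 16 cell cycle genes (median −0.12), E2f7, an atypical E2F repressor, was higher in every CE+BZA mouse (1.02 to 1.45) than in BZA (−1.99 to 0.48). E2f7 was the 1 member higher without overlap at any fold change and 1 member was lower, where 7.15% and 5.5% of all genes were. Of 30 extracellular matrix genes (median 0.02), the anchoring fibril collagen Col7a1 was higher without overlap by 1.37 (SE 0.62, FDR 0.546 by limma), at about 1.94 and 3.47 reads in BZA mice 1 and 3, the floor in mouse 4 and 4.0 to 5.78 reads in CE+BZA. At any fold change 2 of the 30 were higher and 1 was lower without overlap, against the same 7.15% and 5.5%. Without CE+BZA mouse 1 the medians of the solute carriers and the cell cycle genes turned to 0.08 and 0.20.

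The other lists held few or no genes without overlap. Medians were 0.37 for 8 cholesterol and bile acid genes, 0.47 for 5 interferon genes, 0.26 for 11 clock genes, 0.22 for 12 coagulation and complement genes and 0.50 for 20 genes of glucose metabolism and hepatokine signalling. Without BZA mouse 1 the coagulation and complement genes went from 8 higher and 4 lower means to 3 higher and 9 lower, with a median of −0.18, and without CE+BZA mouse 1 the median of the cholesterol and bile acid genes was 0.11. Fdps of the mevalonate pathway differed by 0.70 (SE 0.55), the interferon-induced Slfn1 by 0.92 (SE 0.54) and the clock repressor Cry1 by 0.69 (SE 0.57), and the groups overlapped in all 3. Coagulation factor XI (F11) was at −0.97, −0.17 and −0.52 in BZA and at 0.12, −0.01 and 0.00 in CE+BZA, higher in each mouse but by 0.59 (SE 0.42) on average. F11 was the 1 of 12 higher without overlap, where 7.15% of all genes were.

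**Figure D3:**
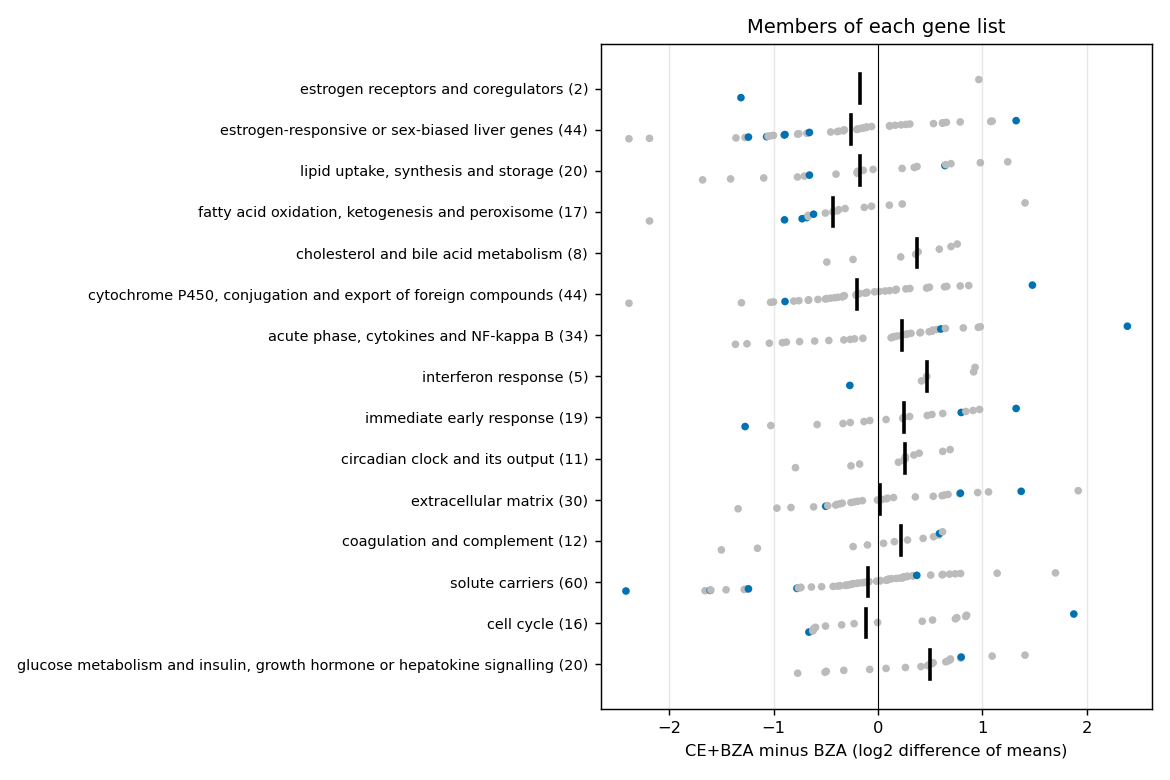
Difference of means between CE+BZA and BZA (log2) for each member of 15 gene lists, the number of members in the table in brackets, the black line the median and blue points the genes whose 2 groups of 3 mice do not overlap. List medians run from −0.43 for fatty acid oxidation to 0.50 for glucose metabolism and hepatokines.

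Of 12 erythroid markers in the table, 9 had lower and 2 had higher means in CE+BZA, the higher ones by up to 0.44. In 6 of the 12 every CE+BZA mouse was below every BZA mouse at any fold change and in 0 was every mouse above, where 5.5% and 7.15% of all genes were. The 4 haemoglobin genes in the table were lower in every CE+BZA mouse than in every BZA mouse, with every scaling and without any one mouse (median −1.29). Hbb-b1 was at 0.39, 0.76 and 0.35 in BZA mice 1, 3 and 4 and at −1.05, −0.75 and −0.71 in CE+BZA mice 1, 2 and 3, a difference of −1.34 (SE 0.52, FDR 0.540 by limma). Hba-a1, Hba-a2 and Hbb-b2 differed by −1.22, −1.25 and −1.44, and the pairs share near-identical sequence. Alas2, the erythroid enzyme of haem synthesis, was lower in each CE+BZA mouse, with a mean difference of −0.79, and Hemgn and Tfrc differed by 0.00 and 0.07. Veh means of the 4 haemoglobin genes lay between −1.07 and −0.48, on the side of CE+BZA.

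Gpnmb, a transmembrane glycoprotein of lipid-laden macrophages, shared the smallest FDR in the table with Gm17705 (0.267 by limma). It was at 3.03, 0.36 and 1.18 in BZA and at −2.33, −1.15 and −1.36 in CE+BZA, a difference of −3.14 (SE 0.66), with Veh at 0.61 ± 0.55 (SD, n = 3). Trem2, a lipid receptor of the same cells, was at 0.84, 0.69 and 1.29 in BZA and at −0.20, 0.29 and −0.55 in CE+BZA, a difference of −1.09 (SE 0.49, FDR 0.545 by limma). The other 4 macrophage or Kupffer cell markers in the table, Ly6c2, Ccr2, Mmp12 and Marco, differed by −0.44 to 0.32. Gpnmb and Trem2 were named from this list after their values were seen. They were the 2 of 6 members lower without overlap by more than 2-fold in the means, where 3.34% of all genes were. Without 1 BZA mouse, the smallest Trem2 difference was 0.92 in size, under 2-fold. Gpnmb and Trem2 are both on a marker list of another cell type. Whether these 2 genes differ from the other 4 was not tested. Neutrophil markers (15, median 0.09) overlapped, with BZA mouse 4 and CE+BZA mice 2 and 3 at 0.90 to 1.15 and the other 3 mice at −0.70 to −0.01. The means of the stellate (2), endothelial (1), mesothelial (5), ductal or epithelial (19) and adipocyte (13) markers overlapped between the groups, and 0 of 16 islet markers are in the table.

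CE given alone and CE added to BZA were then set side by side, as 2 comparisons that share no mice. Over the 2545 genes the difference between CE+BZA and BZA had a Pearson r of −0.01 and a Spearman rho of −0.01 with that between CE and Veh, a description across genes, which are not independent. Over the 1500 genes without the floor these were 0.04 and 0.05. The difference between CE+BZA and BZA had a median size of 0.54 and a median standard error of 0.64. With so much noise, a correlation near 0 cannot show whether the CE effects are alike or unlike. The table was selected on differences from Veh in at least 1 treatment, and how this bears on either difference was not tested.

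In 281 genes (11%) all CE mice were above all Veh mice by more than 2-fold in the means, with a median difference of 1.36. In the same 281 genes the median between CE+BZA and BZA was 0.00, with quartiles of −0.45 and 0.39, 141 genes above 0 and 138 below. Of these genes, 6 (2.14%) were higher and 9 (3.20%) lower without overlap when CE was added to BZA, against 4.44% and 3.34% of all genes. In 221 genes (8.68%) all CE mice were below all Veh mice, with a median of −1.44, and CE+BZA minus BZA had a median of −0.08, with 7 genes (3.17%) higher and 8 (3.62%) lower without overlap. Without floor genes, 202 genes were left of the 281, with 1 (0.495%) higher and 7 (3.47%) lower without overlap. Of the 221, 157 were left, with 4 (2.55%) higher and 3 (1.91%) lower. Among all 1500 genes without the floor, 51 were higher and 42 lower. The median of the group means over the 281 genes was −0.74 for Veh, 0.67 for CE, 0.06 for BZA and 0.00 for CE+BZA. Over the 221 genes it was 0.83, −0.65, −0.01 and −0.03. The genes were chosen on the Veh and CE mice and each is centred on its median over the 15 mice, so the order of these group means is fixed in part by that choice.

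**Figure D4:**
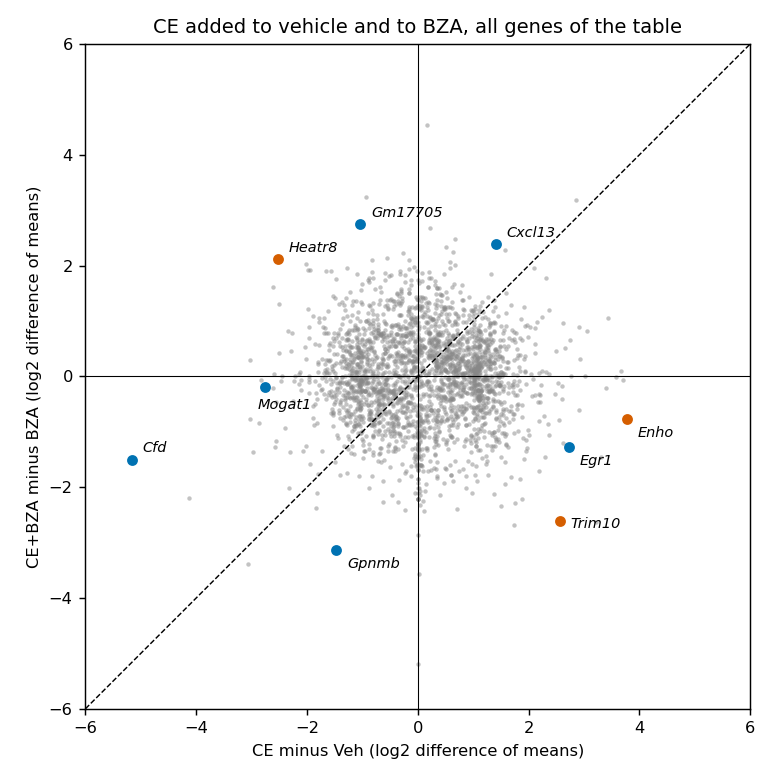
Difference of means (log2) between CE+BZA and BZA against that between CE and Veh for 2545 genes, each from 3 mice per group, with equality dashed, and with the 3 genes whose difference depended on BZA in orange. Points spread around 0 on both axes (Pearson r −0.01) and not along the dashed line. With a median standard error of 0.64 for CE+BZA minus BZA, this spread cannot show whether the CE effects are alike or unlike.

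The genes with the smallest p for CE against Veh are given one by one. They were chosen for their difference between CE and Veh, so a smaller difference between CE+BZA and BZA follows in part from that choice. Their FDRs for CE against Veh are over genes selected on differences from Veh, and how that bears on them was not tested. Bmf, a BH3-only cell death activator, was at −0.74, −0.16 and −1.27 in Veh mice 1, 4 and 7 and at 1.0, 1.95 and 1.99 in CE mice 3, 6 and 7, a difference of 2.37 (FDR 0.097 by limma), while CE+BZA differed from BZA by 0.05 (SE 0.53). Cyp3a44, a female-biased cytochrome P450 with close paralogs, differed by 2.60 (SE 0.65) for CE against Veh and by −0.18 for CE+BZA against BZA. Mogat1 and Pla2g4f, a cytosolic phospholipase, fell in CE by 2.76 and 3.03 on the log2 scale (FDR 0.035 for both by limma) and differed by −0.20 and −0.77 between CE+BZA and BZA. Gsta1, a glutathione transferase with close paralogs, fell in CE by 2.56 (FDR 0.046 by limma) and differed by −0.45. Both BZA groups were already below every Veh mouse in Pla2g4f, Mogat1 and Gsta1. In Pla2g4f all CE+BZA mice and BZA mouse 1 were at the floor of −1.17, with BZA mice 3 and 4 at 0.19 and −0.20. The size of its −0.77 thus depends on where the floor was set. It cannot show how far CE lowers Pla2g4f when added to BZA.

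Of the genes that stood out elsewhere in the series, A1bg, a plasma glycoprotein gene, was at −2.06 to −1.08 in BZA and −2.10 to −0.28 in CE+BZA, a difference of 0.11 (SE 0.60). Cfd, the complement factor adipsin of adipocytes, was at 0.53, 4.59 and −0.88 in BZA and at −0.37, 0.00 and 0.11 in CE+BZA. In Veh it was at 4.20 ± 0.92 (SD, n = 3). Cfd is itself on the adipocyte list, whose mean was 3.24 in BZA mouse 3 and 0.38 to 0.66 in the Veh mice. The part of adipocytes in the Cfd values was not tested. Bmp7, a bone morphogenetic protein, and AA986860 differed by 0.67 (SE 0.55) and 0.55 (SE 0.53), with overlapping mice, and both groups were above all Veh mice.

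The dependence of the CE difference on BZA, which is the CE+BZA minus BZA difference less the CE minus Veh difference, passed an FDR under 0.05 by limma in 3 of 2545 genes (0.118%), Heatr8, Trim10 and Enho. The Veh mean enters this dependence, and the table was selected on differences from Veh. Its FDRs are thus over selected genes, and how the selection bears on them was not tested. Heatr8 was at −0.19, 1.08 and 0.48 in Veh mice 1, 4 and 7 and at −2.10, −2.10 and −1.99 in CE mice 3, 6 and 7. It was at −1.23, −1.33 and −2.10 in BZA and at 0.21, 0.06 and 1.41 in CE+BZA. The gene was thus low with either drug alone and near Veh with both, a dependence of 4.63 (SE 0.71, FDR 0.015). Its values in BZA stand for about 2 reads or the floor, against 5.01, 5.01 and 11.8 in CE+BZA.

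Enho encodes adropin, a peptide hormone of liver linked to lipid and glucose balance. It was at −2.18, −3.09 and −1.56 in Veh mice 1, 4 and 7, and at 2.10, 1.03 and 1.36 in CE mice 3, 6 and 7. BZA mice were at −1.23, 0.84 and 0.34, and CE+BZA mice at −0.84, −0.81 and −0.72. CE raised it from Veh by 3.77 (SE 0.58, FDR 0.014 by limma), CE+BZA differed from BZA by −0.77 (SE 0.58, groups overlapping), and the dependence was −4.54 (SE 0.82, FDR 0.031 by limma). Every group given a drug was above every Veh mouse, and of the 4 groups the CE+BZA mice were the closest to one another. Trim10, an erythroid gene, was at its floor of −0.75 in all Veh and CE+BZA mice, at 0.36 to 2.74 with CE and 0.72 to 3.1 with BZA, a dependence of −5.18 (SE 0.92, FDR 0.031 by limma). The 12 erythroid markers had means of 1.75, 0.87 and −0.10 in CE mice and 0.00, 1.09 and 0.21 in BZA mice. CE+BZA mice had −0.85, −0.33 and −0.25 and Veh mice 0.20, −0.78 and −0.71, and their part in Trim10 was not tested.

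Egr1, which did not pass that threshold, lay lower in every CE+BZA mouse than in every BZA mouse. Veh mice were at −0.48, 0.00 and −1.77 and CE mice at 2.08, 1.36 and 2.51. BZA mice were at 0.26, 0.08 and 0.98 and CE+BZA mice at −1.17, −1.30 and −0.03. The dependence was −4.004 (SE 0.97, FDR 0.18 by limma). Gm17705, Cdx4 and BC049352 had dependences of 3.79, −4.43 and 3.87 (FDR 0.105, 0.076 and 0.114 by limma). BC049352, a protein-coding gene, was at −2.21, −0.52 and −1.18 in BZA and at 1.02, 0.30 and 0.55 in CE+BZA, and the mean in CE less that in Veh was −1.95.

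**Figure D5:**
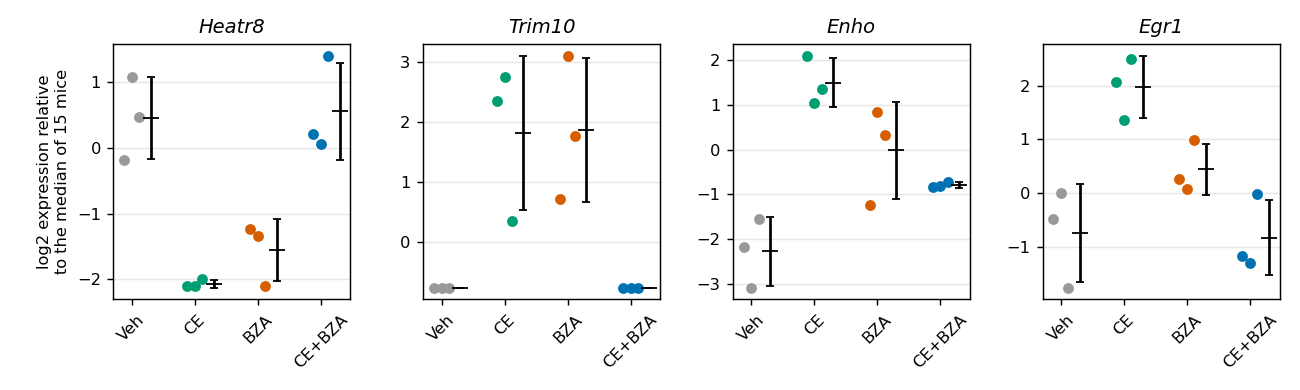
Log2 expression of Heatr8, Trim10, Enho and Egr1 in the 3 mice of each of 4 groups, with the mean and SD beside the points. In Heatr8 each drug alone lies below Veh and CE+BZA does not, and in Trim10, Enho and Egr1 CE is high over Veh while CE+BZA is at or below the BZA mean.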

How the data were processed

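Liver RNA-seq of 15 mice was available, 3 in each of 5 groups, and groups were taken from the labels. Reads had been trimmed by the authors and aligned with TopHat (build mm10 in the submitters' processing notes, which also list hg19), genes counted in StrandNGS and scaled by the DESeq algorithm, and log2 values about each gene's median were deposited, raised to a floor at low values. How the 2545 genes were picked is not given in the sources used here, 6 names occurred more than once and 0 columns were left unmatched. The samples were separate mice.

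No pseudocount was added to the deposited log2 values. The 5 group means were estimated from the 15 mice with limma 3.58.1 (lmFit, eBayes; R 4.3.3), with Benjamini-Hochberg adjustment over 2545 genes and checked on simulated data. A gene passed at an FDR under 0.05 and a fold change above 2, and the dependence on BZA at the FDR alone. Counts, gene positions by symbol (GENCODE, GRCm38, 2167 matched) and plots used Python 3.11.15, pandas 2.3.3 and matplotlib 3.10.9.

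The comparison, the gene lists and the marker lists were chosen with earlier results of these data known. Genes named were, in each direction, the 10 of smallest p among those without overlap, above 2-fold, still so without any one BZA mouse and on no marker list, the 3 of widest gap, up to 4 per gene list without overlap or else the 1 of smallest p, the 3 with the smallest p for the dependence and for CE against Veh, and 8 fixed genes. RP23-73F23.2, of the widest gaps, was at 0.16 to 0.71 in BZA and at its floor of −1.25 in CE+BZA. Genes of the haemoglobin, macrophage, Sult2a and remaining list members were named after their values were seen. Alternatives were quantile normalization, centring, 2 filters on low values, an ordinary linear model, a replicate block, a mean-variance trend, the 6 mice alone, no markers, BZA mouse 4 alone and each mouse left out. The values of CE gene sets without floor genes were added after seeing the data. A result that needs a withheld item is not reported here.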

Additional observations from a re-analysis of the deposited data

Results flagged for a closer look

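In 3 genes the CE difference differed between mice with and without BZA by the test of the difference itself (limma interaction, FDR under 0.05). The FDRs are over genes selected on differences from Veh, which is a group in the test. How that selection bears on them was not tested. The dependence was 4.63 for Heatr8 (SE 0.71, FDR 0.015), −5.18 for Trim10 (SE 0.92, FDR 0.031) and −4.54 for Enho (SE 0.82, FDR 0.031). Between 0 and 5 genes passed when 1 mouse was left out, with 0 genes without Veh mouse 4, CE mouse 6 or CE mouse 3, 1 gene without Veh mouse 1, BZA mouse 3, CE+BZA mouse 1 or CE+BZA mouse 2, and 5 genes without BZA mouse 4.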

How the results depend on the processing

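Between CE+BZA and BZA, 0 genes passed in every setting but leaving out BZA mouse 4, which gave 2 genes (Reg1 and Ctrb1, both of the pancreas), and leaving out CE+BZA mouse 3, which gave 1 (Gm11175, an antisense gene at its floor in all BZA mice and in CE+BZA mouse 3). Without a mouse, FDR calls thus ranged from 0 to 2. Without genes at the floor, unadjusted higher and lower counts went from 110 and 113 to 52 and 53, genes without overlap from 113 and 85 to 51 and 42, and the genes dependent on BZA from 3 to 1. Lower genes numbered 69 in a fit of the 6 mice alone. With BZA mouse 4 as the only BZA mouse there were 188 higher and 51 lower genes, and 492 and 247 without overlap. Leaving out 1 mouse gave 70 to 138 higher genes (70 without BZA mouse 4) and 71 to 207 lower (71 without CE+BZA mouse 1, 207 without BZA mouse 4). Without overlap it gave 134 to 236 higher and 120 to 236 lower, as fewer mice overlap less often. Quantile normalization made the split without overlap 108 higher and 111 lower and centring made it 111 and 107, against 113 and 85. The dependence on BZA was called in 0 genes without the genes of lowest mean value (lower quartile), 1 with an ordinary linear model, 5 with a mean-variance trend and 0 to 5 without a mouse. CE against Veh passed in 4 genes, in 10 with quantile normalization, 8 without floor genes, 13 with an ordinary linear model and 0 to 5 without a mouse.

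The replicate block gave 66 higher and 84 lower genes at an unadjusted p under 0.05, and 0 genes for FDR, for the dependence and for CE against Veh. The 2 shared numbers join different animals, with correlations of deviations of 0.098 and −0.004 (−0.159 to 0.127 for other pairs), so they do not pair the mice.

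Of 79 named genes in 1198 combinations with a setting, 1175 did not change sign and 23, in 9 genes, reversed. With BZA mouse 4 as the only BZA mouse these were Bmf (−0.48), Mogat1 (0.19), Gsta1 (0.19), A1bg (−0.33), Cfd (0.79), Pparg (0.39), Reg1 (0.33) and Ctrb1 (0.33), and Cidea came to 0. Without BZA mouse 1 they were Cyp3a44 (0.0039), Mogat1 (0.10), A1bg (−0.16) and Pparg (0.019), without BZA mouse 3 Bmf (−0.28), Cfd (0.085) and Pparg (0.10), and without BZA mouse 4 Cyp3a44 (0.11). Without CE+BZA mouse 2 they were Bmf (−0.17), Cyp3a44 (0.30) and A1bg (−0.46), and without CE+BZA mouse 1 Pparg (0.21). The replicate block reversed Cyp3a44 (0.46) and A1bg (−0.43), and quantile normalization Bmf (−0.0075). Cfd thus rested on BZA mouse 3, and Reg1 and Ctrb1 on BZA mice 1 and 3. The cause was not tested. Leaving out each mouse moved Bmf from −0.28 to 0.32, Cyp3a44 from −0.65 to 0.30, Mogat1 from −0.39 to 0.10, A1bg from −0.46 to 0.46, Cfd from −2.65 to 0.085 and Pparg from −0.27 to 0.21. With 3 mice a group and unknown depth, differences near the median standard error of 0.64 were not detectable.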
